A study of Mus musculus with 2 samples.

Results

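The genes described here are 5 pairs of isoenzymes of glycolysis and pyruvate metabolism, each made of a member used in most somatic tissues and a member known for its use in the testis. The pairs are Aldoa and Aldoart1, Gapdh and Gapdhs, Pgk1 and Pgk2, Ldha and Ldhc, and Pdha1 and Pdha2. They were chosen by symbol, with earlier results of these data known, and are 10 of the 50686 genes in the count table. RNA was measured in 2552 single cells from the testes of 2 wild-type C57Bl/6J mice at 8 weeks of age, 1237 cells from mouse 1 and 1315 from mouse 2, with no treatment and no mutant. The mice were littermates and each gave 1 droplet library, so that a spread between them covers animal and library together.

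Glycolysis splits glucose into pyruvate, and each enzyme in the pairs catalyses 1 of its steps or a step next to it. Aldolase cleaves fructose bisphosphate, glyceraldehyde-3-phosphate dehydrogenase makes the first NADH, phosphoglycerate kinase returns ATP, lactate dehydrogenase interconverts pyruvate and lactate, and the E1 alpha subunit of pyruvate dehydrogenase takes part in the conversion of pyruvate to acetyl-CoA. Sperm depend on glycolysis in the tail for movement, and spermatocytes are known to use lactate supplied by Sertoli cells. Pgk1 and Pdha1 lie on the X chromosome, which is silenced during meiotic prophase, while Pgk2 and Pdha2 are autosomal copies without introns.

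In the GENCODE annotation of GRCm38, Pgk1 lay at chrX:106187100-106203699 with 11 exons and Pgk2 at chr17:40207015-40208640 with 1 exon. Pdha1 lay at chrX:160122209-160138413 with 11 exons and Pdha2 at chr3:141210004-141212355 with 1 exon. Aldoa lay at chr7:126795234-126800751 with 10 exons and Aldoart1 at chr4:72850583-72852634 with 1 exon. Ldha at chr7:46841475-46855627 and Ldhc at chr7:46861203-46878142 had 8 exons each and stood next to each other on the same strand. Gapdh lay at chr6:125161715-125166467 with 7 exons and Gapdhs at chr7:30729775-30743681 with 11 exons.

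The identity between the coding parts of a pair was 93.9% for Aldoa and Aldoart1, 79.3% for Pgk1 and Pgk2, 75.6% for Pdha1 and Pdha2, 73.9% for Ldha and Ldhc and 71.6% for Gapdh and Gapdhs. The last 90 coding bases are shown for 3 pairs. They are written 5′ to 3′ with the stop codon, from GENCODE transcripts of GRCm38, and capitals mark the bases at which the members of a pair differ. A 3′ untranslated part follows them, of 485 bases in Ldha, 265 in Ldhc, 183 in Aldoa and 727 in Aldoart1. In Pdha1 that part has 1574 bases and in Pdha2 566. Reads in this assay start near the 3′ end of a transcript, so these differences need not lie where reads fall. The pairs differed at 21 bases for lactate dehydrogenase, 25 for pyruvate dehydrogenase and 5 for aldolase. The end of Gapdh and Gapdhs could not be set side by side without a gap and is left out.
Ldha (chr7:46855052-46855141, plus strand): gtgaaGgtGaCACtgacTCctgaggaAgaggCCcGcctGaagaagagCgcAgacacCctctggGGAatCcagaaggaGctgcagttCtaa
Ldhc (chr7:46877788-46877877, plus strand): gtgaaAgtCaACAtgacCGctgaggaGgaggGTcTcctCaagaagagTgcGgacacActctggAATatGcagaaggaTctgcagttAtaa
Aldoa (chr7:126795419-126795508, minus strand): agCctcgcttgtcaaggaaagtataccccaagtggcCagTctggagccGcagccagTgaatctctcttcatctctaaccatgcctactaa
Aldoart1 (chr4:72851310-72851399, minus strand): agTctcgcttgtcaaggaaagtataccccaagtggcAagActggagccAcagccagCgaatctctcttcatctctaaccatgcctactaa
Pdha1 (chrX:160123783-160123872, minus strand): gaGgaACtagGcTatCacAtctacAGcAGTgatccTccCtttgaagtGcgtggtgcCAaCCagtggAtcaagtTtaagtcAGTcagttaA
Pdha2 (chr3:141210570-141210659, minus strand): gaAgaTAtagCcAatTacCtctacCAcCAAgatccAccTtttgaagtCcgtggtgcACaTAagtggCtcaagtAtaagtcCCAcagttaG

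Across the last 400 bases of each member's transcript, 98-base windows, the length of the RNA read, were compared with the transcripts of all other annotated genes. No window of 9 members was found in another gene. In Gapdh, 212 of 303 windows, or 70.0%, were also found in transcripts of 54 other genes, among them Gapdh-ps15. Those genes held 51 UMIs in all cells against 749 for Gapdh, where a UMI is a count of 1 captured molecule. The Gapdh level is therefore uncertain throughout.

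The cells were grouped into classes by K-means clustering, with the members and a list of 50 other genes of the pathway left out, and named "-like" from marker genes. The classes in order of differentiation were 7 spermatogonium-like cells, 163 cells like early spermatocytes (called early-like), 526 like spermatocytes at pachytene or later (pachytene-like), 447 like round spermatids (round-like) and 707 like elongating or condensing spermatids (elongating-like). The last class joined a UMI-rich cluster of 193 cells and a UMI-poor cluster of 514 cells. A cluster of 690 cells led by Ssxb genes, in which 2 of 12 round spermatid markers passed, was left unnamed and lay between pachytene-like and round-like cells in the ordering below. Sertoli-like cells numbered 7 and Leydig-like cells 5, and all 12 Sertoli and 7 Leydig markers passed in them. Levels are UMIs of a gene per 1000000 UMIs of a class in 1 mouse (CPM). They count molecules at the 3′ end and are not scaled by transcript length, so they can be compared between genes as captured molecules, and a lower share of UMIs and less RNA per cell cannot be told apart from CPM alone.

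RNA released from spermatids can add UMIs to other cells in such a suspension. Prm1, Prm2, Tnp1 and Tnp2, which encode protamines and transition proteins of late spermatids, stood at 19.0% and 12.9% of their level over all cells in early-like cells of mouse 1 and mouse 2, and at 9.19% and 10.2% in pachytene-like cells. In early-like cells Gapdhs stood at 20.3% and 14.4% of its own level over all cells, Pgk2 at 17.6% and 12.8%, and Aldoart1 at 16.9% and 4.02%. In pachytene-like cells Gapdhs stood at 14.1% and 12.2% and Aldoart1 at 14.7% and 11.1%. Pgk2 in pachytene-like cells stood at 55.3% and 50.3%, and Ldhc in early-like cells at 81.0% and 98.1%. Set against the UMIs of the protamine and transition protein genes in the same cells, Gapdhs had 17.4 and 31.5 UMIs per 1000 of theirs in early-like cells, 25 and 33.8 in pachytene-like cells, 11.6 and 20.1 in the UMI-poor cluster and 16.3 and 28.1 over all cells. Pgk2 had 13.1 and 22.5 in early-like cells, 85.3 and 112 in pachytene-like cells, 5.71 and 8.95 in the UMI-poor cluster and 14.2 and 22.7 over all cells. Aldoart1 had 1.62 and 1.04 in early-like cells, 2.91 and 3.63 in pachytene-like cells, 0.574 and 0.851 in the UMI-poor cluster and 1.82 and 3.32 over all cells. In Leydig-like cells the protamine and transition protein genes stood at 22.4% and 19.3% of their level over all cells and Ldhc at 3.84% and 5.97%, so that no single percentage held for all genes. How much of the low levels of Gapdhs, Pgk2 and Aldoart1 in these spermatocyte classes was released RNA was not tested.

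Aldoa was found in all large germ cell classes, and Aldoart1 was low in both spermatocyte classes and higher from the Ssxb cluster on. Aldoa stood at 50.8 and 46.2 CPM in early-like cells of mouse 1 and mouse 2, 52.1 and 47.1 in pachytene-like cells, 72.6 and 94.5 in the Ssxb cluster, 108 and 124 in round-like cells and 138 and 172 in elongating-like cells. Aldoart1, which encodes a testis aldolase, stood at 10.2 and 3.30, 8.82 and 9.12, 91.1 and 115, 105 and 124, and 98.7 and 119 CPM in the same classes. The levels of Aldoart1 overlapped between neighbours in the Ssxb, round-like, UMI-rich and UMI-poor clusters, and also between both spermatocyte classes. In round-like cells Aldoart1 made up 49.2% (95% interval 45.9 to 52.5, mouse 1) and 50.1% (47.6 to 52.7, mouse 2) of the UMIs of the pair. In the UMI-poor cluster it made up 40.1% and 37.3%, and only in the Ssxb cluster was its share above that of Aldoa in both mice.

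The plot of levels by class shows Aldoa and Aldoart1 close to each other from the Ssxb cluster on, while the members of the other pairs stay apart.

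**Figure D1:**
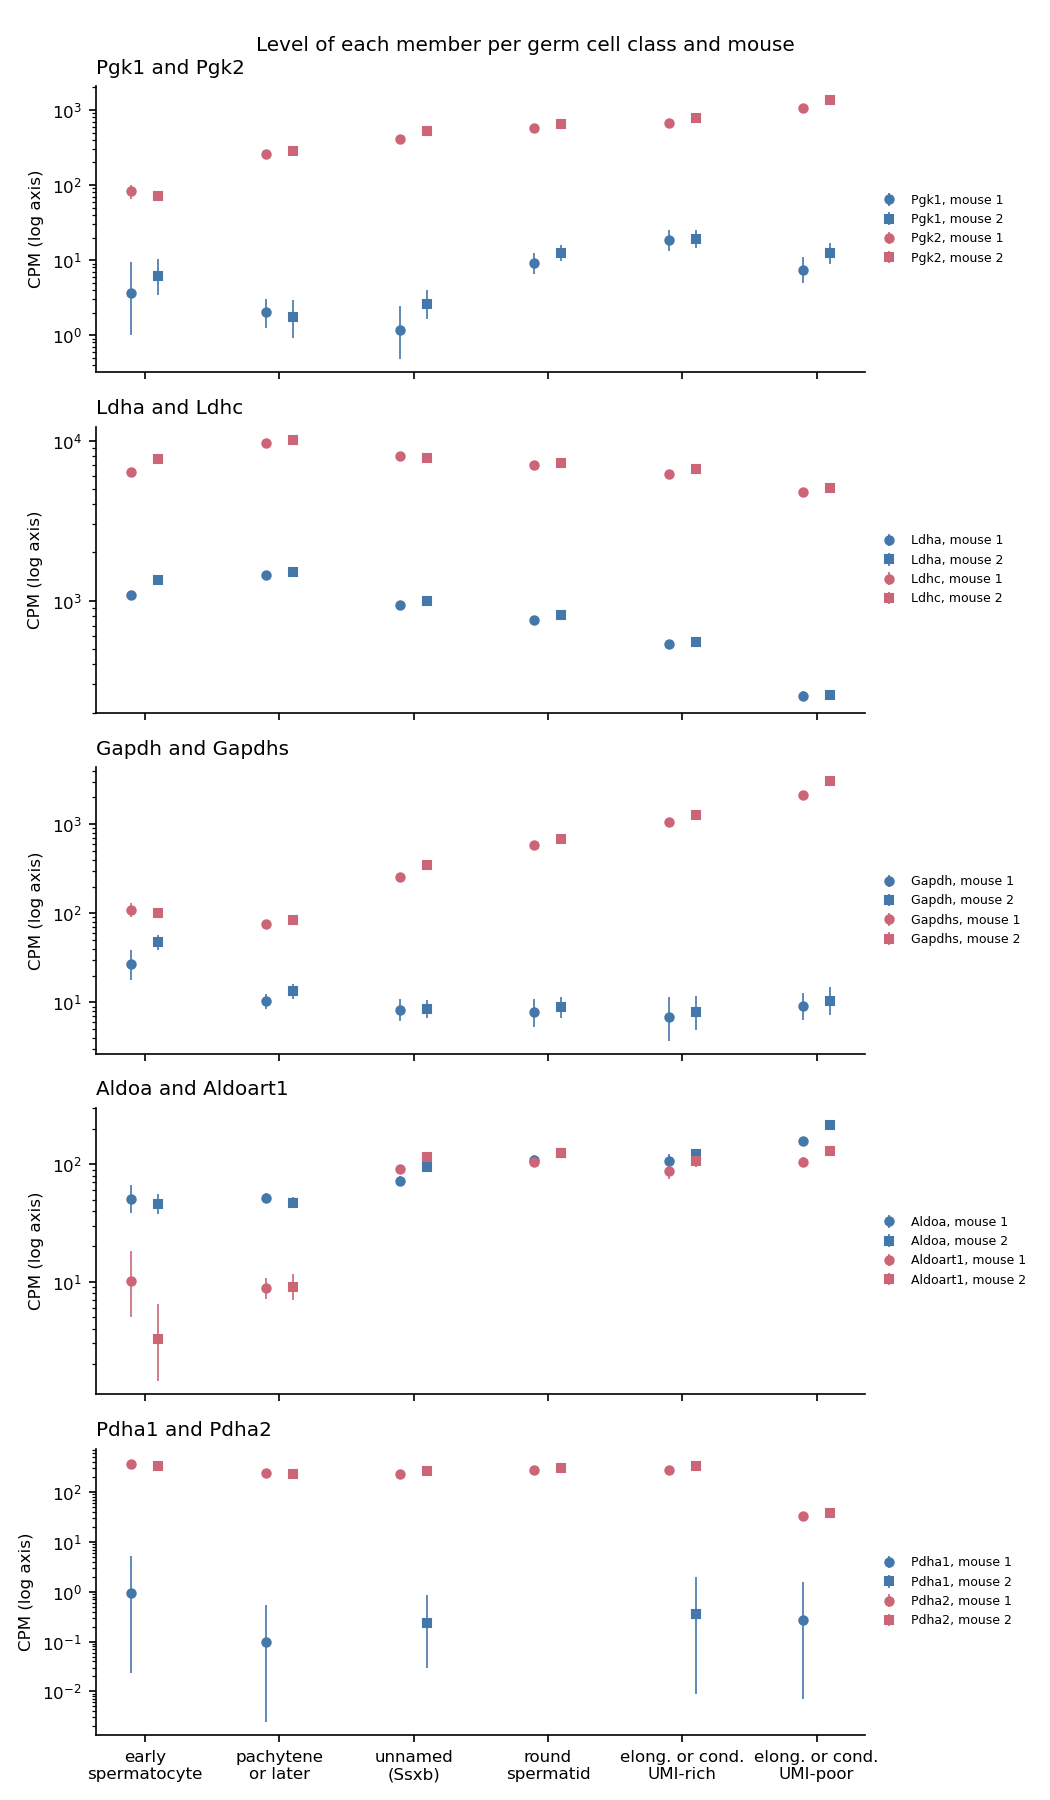
Level of each member in CPM (log axis) in 6 germ cell clusters, with somatic members in blue, germ cell members in red, mouse 1 as circles and mouse 2 as squares. Bars are exact Poisson 95% intervals, levels of 0 (Pdha1) are not drawn, and the red points lie above the blue ones in every pair but Aldoa and Aldoart1.

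A further intronless aldolase gene, Aldoart2, was more abundant than Aldoart1 in spermatids. Aldoart2 stood at 21.3 and 25.2 CPM in early-like cells, 18.6 and 22.1 in pachytene-like, 210 and 286 in the Ssxb cluster, 382 and 482 in round and 418 and 487 in elongating-like cells. Aldoart2 was thus above Aldoa from the Ssxb cluster on, where Aldoa stood at 108 and 124 CPM in round-like cells. The closeness of levels holds for Aldoa and Aldoart1 alone, not for Aldoa and both intronless genes. Aldoart1 and Aldoart2 shared 89.4% of the aligned coding bases. No read-length window from the last 400 bases of either transcript occurred in the other gene, and windows further upstream were not compared. Aldoc had 32 UMIs in all cells.

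Gapdhs, which encodes the glyceraldehyde-3-phosphate dehydrogenase of the sperm tail, was low in spermatocytes and high in late spermatids. Its level was 109 and 100 CPM in early and 76.0 and 84.9 in pachytene-like cells, then 257 and 350 in the Ssxb cluster, 588 and 682 in round-like cells, 1067 and 1274 in the UMI-rich and 2118 and 3053 in the UMI-poor cluster. No neighbouring levels in that order overlapped between the mice, and the highest cluster was 27.9-fold and 36-fold above the lowest. Gapdhs gave 13.3 and 16.0 UMIs per cell in round-like cells and 26.9 and 41.7 in the UMI-poor cluster, so that it was higher per cell in cells with a lower total as well.

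By counted UMIs, Gapdh was the scarcer member in all large germ cell classes. It stood at 26.8 and 47.5 CPM in early-like cells, 10.4 and 13.3 in pachytene-like, and between 6.80 and 10.5 in the later clusters. Of neighbours in the order of levels, the mice overlapped between pachytene-like and UMI-poor, between Ssxb and round-like and between round-like and UMI-rich cells. In the small classes Gapdh reached 195 and 637 CPM in spermatogonium-like cells, 400 and 245 in Sertoli-like cells and 200 and 516 in Leydig-like cells, which rest on 2 to 29 UMIs per mouse. The share of Gapdhs in the pair was 80.3% and 67.9% in early-like, 88.0% and 86.5% in pachytene-like, 96.9% and 97.6% in Ssxb and 98.7% in round-like cells of both mice. Reads in the 70.0% of Gapdh windows shared with other genes could be lost, which would raise these shares. Released RNA could raise them too. In early-like cells Gapdhs stood at 20.3% and 14.4% of its level over all cells. The protamine and transition protein genes stood at 19.0% and 12.9% of theirs. The part of released RNA in the Gapdhs shares of both spermatocyte classes was not tested.

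Pgk2 was the dominant phosphoglycerate kinase in every large class, and its level was higher at each step. It stood at 82.2 and 71.9 CPM in early-like cells and at 259 and 283 in pachytene-like cells, 409 and 517 in Ssxb cells, 576 and 655 in round-like cells, 675 and 786 in the UMI-rich and 1047 and 1356 in the UMI-poor cluster. No neighbouring levels overlapped. Pgk2 made up between 98.1% and 99.7% of the pair in the pachytene-like, Ssxb and round classes. Its share was 97.3% and 97.6% in the UMI-rich and 99.3% and 99.1% in the UMI-poor cluster. In early-like cells it was 95.7% (95% interval 89.4 to 98.8) and 92.1% (87.2 to 95.5), and the part of released RNA in it was not tested.

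Pgk1 had 372 UMIs in all cells. It stood at 3.70 and 6.19 CPM in early-like cells, 2.01 and 1.74 in pachytene-like and 1.19 and 2.64 in Ssxb cells, then at 9.14 and 12.5 in round-like cells and 18.4 and 19.3 in the UMI-rich cluster and 7.49 and 12.4 in the UMI-poor cluster. These last 3 groups were above the early-like, pachytene-like and Ssxb cells in both mice. Per cell, Pgk1 had 0.442 and 0.505 UMIs in the UMI-rich and 0.0951 and 0.170 in the UMI-poor cluster. Spermatogonium-like cells had 97.4 and 45.5 CPM from 3 and 2 UMIs, and Leydig-like cells 100 and 123 CPM from 1 and 5 UMIs.

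Ldhc, the lactate dehydrogenase of germ cells, was the most abundant member, at 6336 and 7673 CPM in early and 9625 and 10046 in pachytene-like cells. It stood at 8000 and 7831 in the Ssxb cluster, 7078 and 7209 in round-like cells, 6160 and 6657 in the UMI-rich and 4804 and 5069 in the UMI-poor cluster. A pachytene-like cell held on average 327 and 342 UMIs of Ldhc, and a cell of the UMI-poor cluster 61.0 and 69.2. Sertoli-like cells had 1309 and 900 CPM and Leydig-like cells 300 and 467, which is 16.7% and 11.5%, and 3.84% and 5.97%, of the level over all cells.

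Ldha, although called the somatic member, was abundant in germ cells. It stood at 1083 and 1352 CPM in early-like, 1439 and 1501 in pachytene-like, 945 and 993 in Ssxb, 762 and 820 in round-like, 533 and 552 in UMI-rich and 256 and 258 CPM in UMI-poor cells. No neighbouring levels overlapped. Its level in Sertoli-like cells was 262 and 245 CPM, from 19 UMIs in 6 cells of mouse 1 and 3 UMIs in 1 cell of mouse 2. These values were below those of all large germ cell classes other than the UMI-poor cluster. The Poisson interval was 158 to 409 CPM in mouse 1. In mouse 2 it was 50.6 to 717 CPM, which spans the UMI-rich and UMI-poor levels. Ldha was thus not confined to somatic cells, but its ranking between Sertoli-like and germ cells rests on 22 Sertoli-like UMIs.

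The share of Ldhc in the pair was 85.4% and 85.0% in early, 87.0% and 87.0% in pachytene-like, 89.4% and 88.7% in Ssxb, 90.3% and 89.8% in round and 93.7% and 93.6% in elongating-like cells. The values of the mice did not overlap between any neighbouring classes. Both members were found in the same cells. With each cell thinned to 5000 UMIs, 99.7% and 99.1% of the pachytene-like cells, and 64.1% and 61.3% of the UMI-poor cells, had a UMI of Ldha and of Ldhc. No cell of any large class had Ldha without Ldhc. The unthinned shares with both were 100% and 100%, and 87.3% and 83.0%. In Leydig-like cells, which should lack Ldhc, all 5 cells had a UMI of it, at medians of 9991 and 9652 UMIs per cell against 19866 and 22017 in pachytene-like cells, so presence alone does not separate expression from released RNA.

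**Figure D2:**
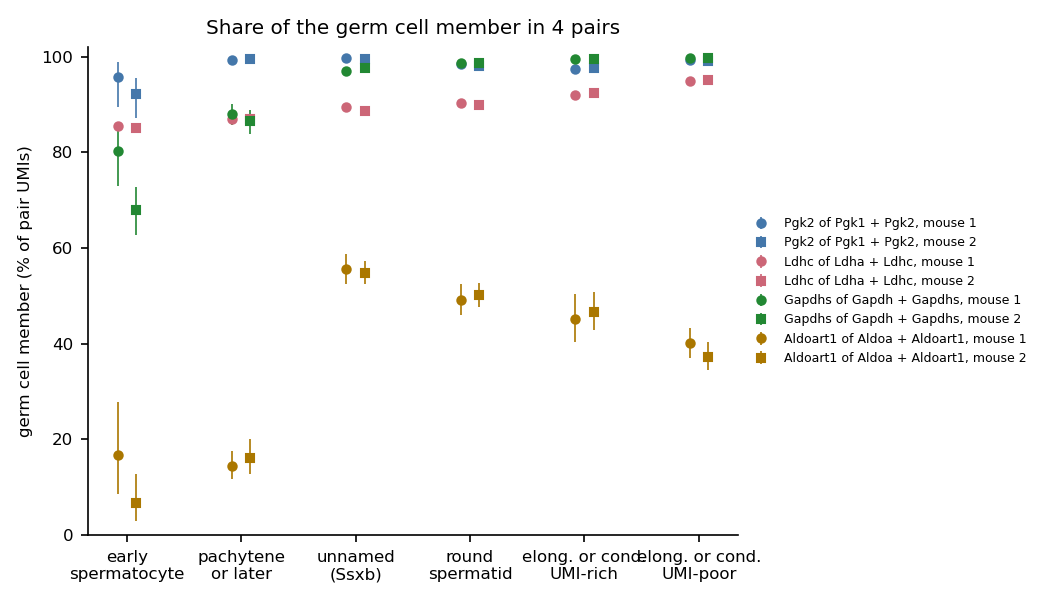
Share of the germ cell member in the summed UMIs of 4 pairs, in percent, in 6 germ cell clusters, with mouse 1 as circles, mouse 2 as squares and exact binomial 95% intervals as bars. Ldhc climbs from about 85% upward, while Aldoart1 is highest in the unnamed cluster at 55.6% and 54.8%.

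A further lactate dehydrogenase gene, Ldhal6b, was also highest in pachytene-like cells, with 968 and 1208 CPM in early-like, 1714 and 1778 in pachytene-like, 982 and 1027 in round and 413 and 466 in elongating-like cells. Ldhb, which encodes the heart form of the enzyme, stood at 1663 CPM in Sertoli-like and 927 CPM in Leydig-like cells of both mice together and under 10 CPM in all large germ cell classes. Ldhd had 30 UMIs in all cells.

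Co-detection of the aldolase pair was lower. In thinned round-like cells 17% and 24.3% had both, 21.8% and 21.6% Aldoart1 alone and 22.9% and 23.6% Aldoa alone. Without thinning 79.3% and 78.8% had both. At 5000 UMIs a cell, a level near 100 CPM is worth less than 1 UMI, and cells without one cannot be read as cells without the transcript.

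**Figure D3:**
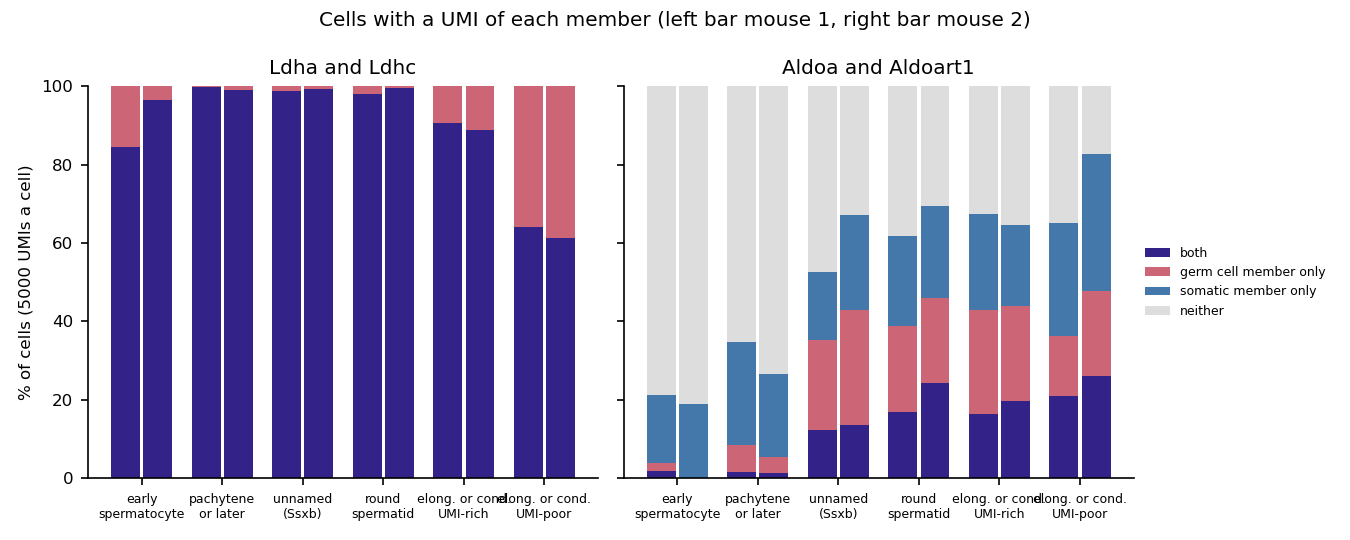
Percent of cells with a UMI of both members, of 1 member or of neither, for lactate dehydrogenase (left) and aldolase (right), after thinning each cell to 5000 UMIs, with mouse 1 as left and mouse 2 as right bar of each cluster. Cells with both Ldha and Ldhc make up 84.6% or more of each cluster before the UMI-poor cluster (64.1% and 61.3%), and cells with both Aldoa and Aldoart1 at most 26.1%.

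Pdha1 was nearly undetected. It had 10 UMIs in 2552 cells, 6 in mouse 1 and 4 in mouse 2, of which 2 and 1 lay in Leydig-like cells. Round-like cells had 0 UMIs in both mice, which allows up to 0.703 and 0.495 CPM at 3 counts of the total. Pdha2, its autosomal counterpart, held 6120 of 6126 UMIs of the pair in mouse 1 and 7677 of 7681 in mouse 2. Its level was 370 and 332 CPM in early-like cells, 241 and 232 in pachytene-like, 228 and 267 in Ssxb, 272 and 308 in round-like, 279 and 331 in UMI-rich and 33.8 and 38.8 in UMI-poor cells. Of the members, Pdha2 had the largest fold between the UMI-rich and UMI-poor clusters, from 6.69 and 8.65 to 0.430 and 0.530 UMIs per cell. Sertoli-like cells, 6 in mouse 1 and 1 in mouse 2, had 0 UMIs of Pdha2, which allows up to 41.3 and 245 CPM at 3 counts of the total. These limits lie above the levels in the UMI-poor cluster, so the zeros do not set Sertoli-like cells apart from it.

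Cells were also ordered by diffusion pseudotime, computed without these genes and the pathway list, and cut into 20 bins of 126 or 127 cells. Bin 1 held early-like cells only, bins 2 to 5 mostly pachytene-like cells, bins 6 to 11 mostly Ssxb cells, bins 12 to 14 mostly round-like cells and bins 15 to 20 mostly elongating-like cells. Ldha peaked in bin 2 of each mouse, at 1655 and 1709 CPM, and lowest in bin 20, at 260 and 209. Pdha2 was highest in bin 1, at 392 and 362 CPM, and Gapdh too, at 32.0 and 60.9. Pgk1 was highest in bins 15 and 14, at 19.2 and 22.4 CPM. Pgk2 was highest in bin 20, at 1023 and 1511 CPM, and Gapdhs in bins 19 and 20, at 2024 and 3598.

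The CPM of the germ cell members rose at different places along this ordering. Pgk2 stood at 81.9 and 64.2 CPM in bin 1, 157 and 138 in bin 2 and 292 and 336 in bin 3. Per cell it had 1.57 and 1.16 UMIs, then 4.75 and 4.73, then 5.57 and 6.88. The mean total per cell fell between bins 2 and 3, from 30194 and 34280 to 19099 and 20508 UMIs. Between bins 6 and 7 Aldoart1 went from 21.0 and 27.5 to 62.4 and 54.4 CPM, while Gapdhs was at 103 and 133 and then 175 in both mice. Per cell Aldoart1 went from 0.709 and 0.792 to 1.34 and 1.35 UMIs, and Gapdhs from 3.47 and 3.83 to 3.77 and 4.35. Between bins 13 and 14 Gapdhs went from 595 and 734 to 1075 and 1079 CPM, and Pgk1 from 7.72 and 11.0 to 17.9 and 22.4. Each of these steps was present in both mice.

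**Figure D4:**
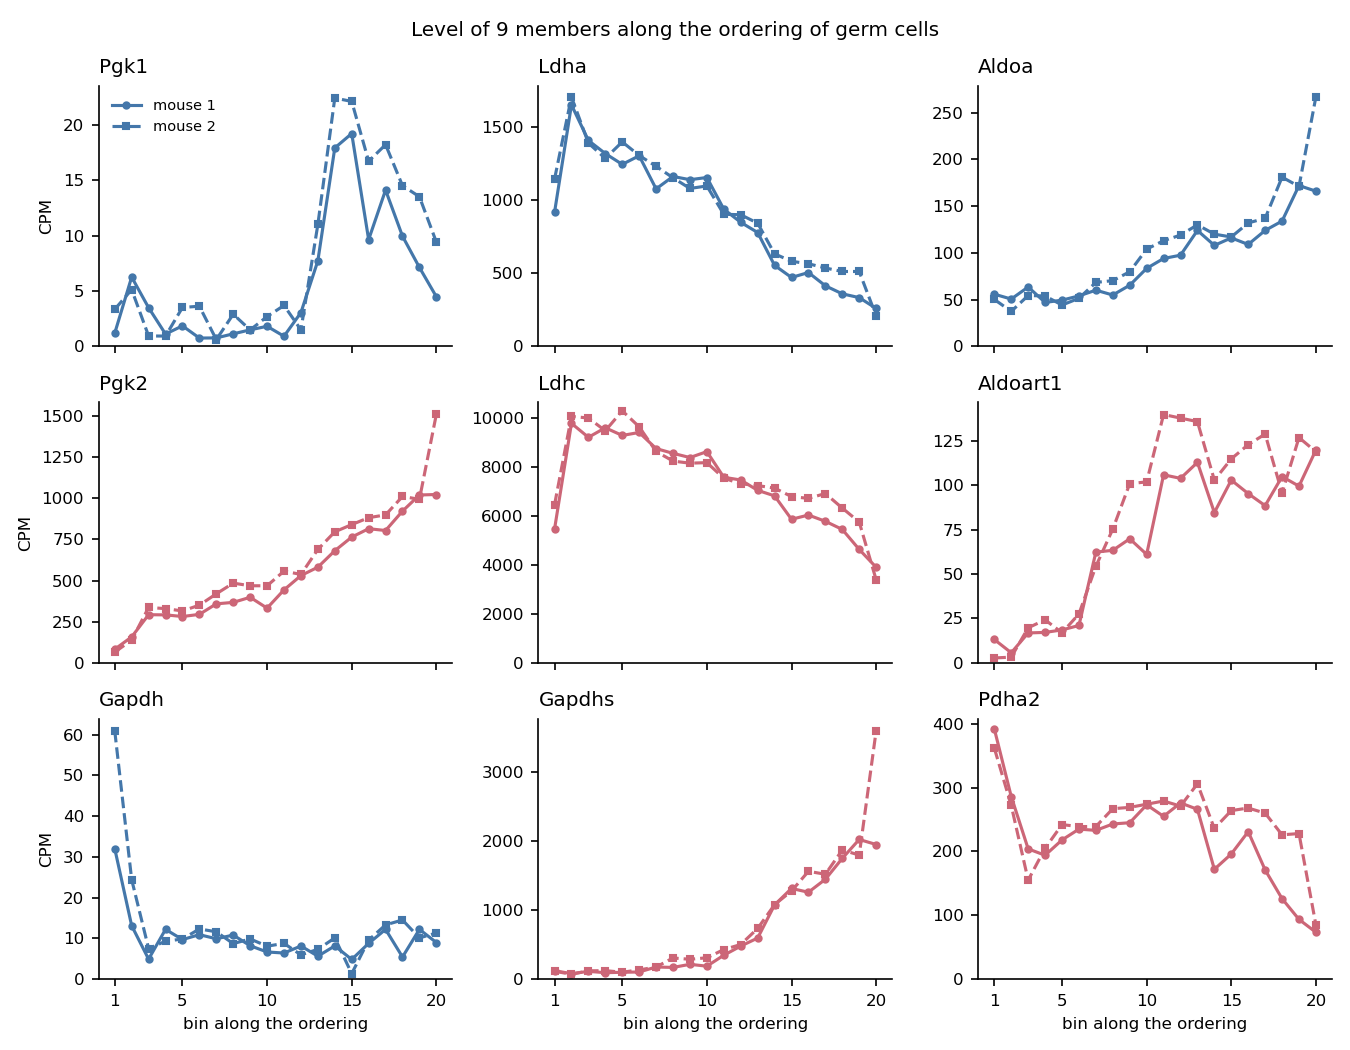
Level in CPM of 9 members (Pdha1, with 10 UMIs, is left out) in 20 bins of the germ cell ordering, for mouse 1 (solid, circles) and mouse 2 (dashed, squares), with an axis of its own for each gene. Ldha and Ldhc decline from bin 2 or 5, Gapdhs and Pgk2 climb to bins 19 and 20, and Pgk1 peaks in bins 14 and 15.

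Among 3405 genes with a mean of at least 50 CPM, likeness to each member was the Pearson coefficient of the log2 of CPM plus 10 over the 20 bins, given for mouse 1 and then mouse 2 as a description. The genes named were picked as most alike in mouse 1, and their ranks in mouse 2 varied. Oaz3 for Gapdhs, Hmox2 for Pgk2, Fam50b for Ldhc and Gng5 for Pdha2 ranked 1 there. Dgcr6 for Ldha ranked 132, Gm15517 for Aldoa 60 and Iqcf6 for Pgk1 40. Gapdhs was most like Clpb (0.998 and 0.996) and Oaz3 (0.998 and 0.999), the second of which is also in the marker list of elongating spermatids. Pgk2 was like Hmox2 (0.975 and 0.969), and Pgk1 most like Lrrfip2 (0.917 and 0.933) and Iqcf6 (0.912 and 0.915). Ldhc was most like Tex40 (0.987 and 0.959) and Fam50b (0.983 and 0.978), and Ldha most like Dgcr6 (0.993 and 0.961) and Dctn2 (0.993 and 0.989). Aldoart1 was most like Ddi1 (0.991 and 0.984) and Fam220a (0.984 and 0.978), and Aldoa most like Iqcf4 (0.964 and 0.969) and Gm15517 (0.962 and 0.948). Pdha2 was most like Gng5 (0.977 and 0.886) and Rpl30 (0.946 and 0.828), and Gapdh most like Rps28 (0.848 and 0.824) and Rpl35 (0.835 and 0.812). For Pdha1 the best coefficients in mouse 1, 0.706 with Rps12 and 0.667 with Rpl41, were -0.057 and -0.052 in mouse 2.

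Differences between successive classes were tested on UMIs summed per mouse and class, with edgeR's quasi-likelihood test and Benjamini-Hochberg adjustment over 14994 rows. Of the 10 members 9 passed the filter on low counts, and Pdha1 did not. The scaling of the sums mattered. TMM scaling, which centres on the bulk of genes, placed the median of all genes at 0.02, -0.11 and -0.02 on the log2 scale in the 3 comparisons. Scaling to the total UMIs, as in CPM, placed it at -0.23, -0.42 and -0.88, and the shares of calls that were higher were 51.6%, 49.7% and 51.0% under TMM and 38.9%, 42.7% and 22.5% under total scaling. Fold changes below are from TMM scaling unless stated, and a direction that flips under the other scaling is given with both.

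From early to pachytene-like cells, 4 members rose, where 24.9% of all rows did, and 2 fell, where 23.4% did. Pgk2 rose by 2.11 ± 0.17 (log2, SE, 2 mice, edgeR adjusted p 4.7e-09), Ldhc by 0.77 ± 0.18 (edgeR adjusted p 0.0012) and Ldha by 0.55 ± 0.16 (edgeR adjusted p 0.0063). Aldoart1 rose by 0.96 ± 0.36 (edgeR adjusted p 0.034), but its CPM was lower in mouse 1, at 8.82 against 10.2, and higher in mouse 2, at 9.12 against 3.30. Gapdh fell by 1.47 ± 0.25 and Pgk1 fell by 1.22 ± 0.48 (edgeR adjusted p 4.9e-05 and 0.043). Without the early-like sum of mouse 2 the calls of Gapdh, Pgk1 and Aldoart1 were lost, with edgeR adjusted p of 0.064, 0.69 and 0.69. The call of Pgk1 was also lost without the pachytene-like sum of mouse 1 (edgeR adjusted p 0.068) or mouse 2 (0.11), without the elongating-like sum of mouse 1 (0.062) and without doublets (0.061), and that of Aldoart1 without the pachytene-like sum of mouse 1 (edgeR adjusted p 0.056). Under total scaling Ldha and Aldoart1 did not pass, with edgeR adjusted p of 0.084 and 0.15. Gapdhs, Aldoa and Pdha2 did not pass, at -0.09, 0.33 and -0.27, and Pdha2 was lower under total scaling, at -0.57 ± 0.15 (edgeR adjusted p 0.0051).

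From pachytene-like to round-like cells, 6 members rose, where 37.0% of all rows did, and 1 fell, where 37.3% did. Aldoart1 rose by 3.99 ± 0.20 (edgeR adjusted p 2.4e-13) and Gapdhs by 3.30 ± 0.18 (edgeR adjusted p 9.9e-13). The other rises were those of Pgk1 at 2.83 ± 0.33 (edgeR adjusted p 1.6e-07), Aldoa at 1.54 ± 0.16 (2.5e-08), Pgk2 at 1.5 ± 0.15 (1.9e-08) and Pdha2 at 0.61 ± 0.16 (0.0014). The rise of Pdha2 was not past the threshold under total scaling, at 0.29 ± 0.15 (edgeR adjusted p 0.078). Ldha fell by 0.57 ± 0.16 (edgeR adjusted p 0.0025), and this call was lost without the round-like sum of mouse 1 (edgeR adjusted p 0.061). Ldhc and Gapdh did not pass, at -0.14 ± 0.18 and -0.17 ± 0.26, and under total scaling Ldhc was lower at -0.46 ± 0.12 (edgeR adjusted p 0.0026).

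From round to elongating-like cells, 7 members rose under TMM scaling, where 27.1% of all rows did, and 0 fell, where 26.0% did. Under total scaling 3 rose and 3 fell, where 2180 and 7510 of all 14994 rows did. Gapdhs, Pgk2 and Aldoa rose under both, by 2.50 ± 0.18, 1.56 ± 0.15 and 1.28 ± 0.16 under TMM and by 1.64 ± 0.15, 0.70 ± 0.14 and 0.42 ± 0.15 under total scaling. Ldhc changed direction, from 0.50 ± 0.18 (edgeR adjusted p 0.023) to -0.36 ± 0.12 (edgeR adjusted p 0.016). Aldoart1 was at 0.78 ± 0.17 under TMM and -0.08 ± 0.17 under total scaling, Pgk1 at 1.17 ± 0.27 and 0.31 ± 0.27, and Gapdh at 0.93 ± 0.28 and 0.07 ± 0.27, each called under TMM only. Leaving out any 1 of the 4 sums ended the call of Ldhc (edgeR adjusted p 0.12 to 0.24), as did clustering on the 2000 most variable genes (0.36, edgeR adjusted p 0.14), and leaving out the round-like sum of mouse 1 or either elongating-like sum ended that of Gapdh (0.072 to 0.081). Ldha and Pdha2, at -0.21 ± 0.16 and -0.09 ± 0.16 under TMM, fell under total scaling, by 1.07 ± 0.12 and 0.95 ± 0.15 on the log2 scale. The elongating-like sums pool the UMI-rich and UMI-poor clusters, so such values depend on the cells taken from each. Pdha2 stood at 272 and 308 CPM in round-like cells, 279 and 331 in the UMI-rich and 33.8 and 38.8 in the UMI-poor cluster. Protamine and transition protein UMIs made up 14.2% and 11.0% of all UMIs in the later class against 0.737% and 0.550% in the earlier one, and their part in these differences was not tested.

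**Figure D5:**
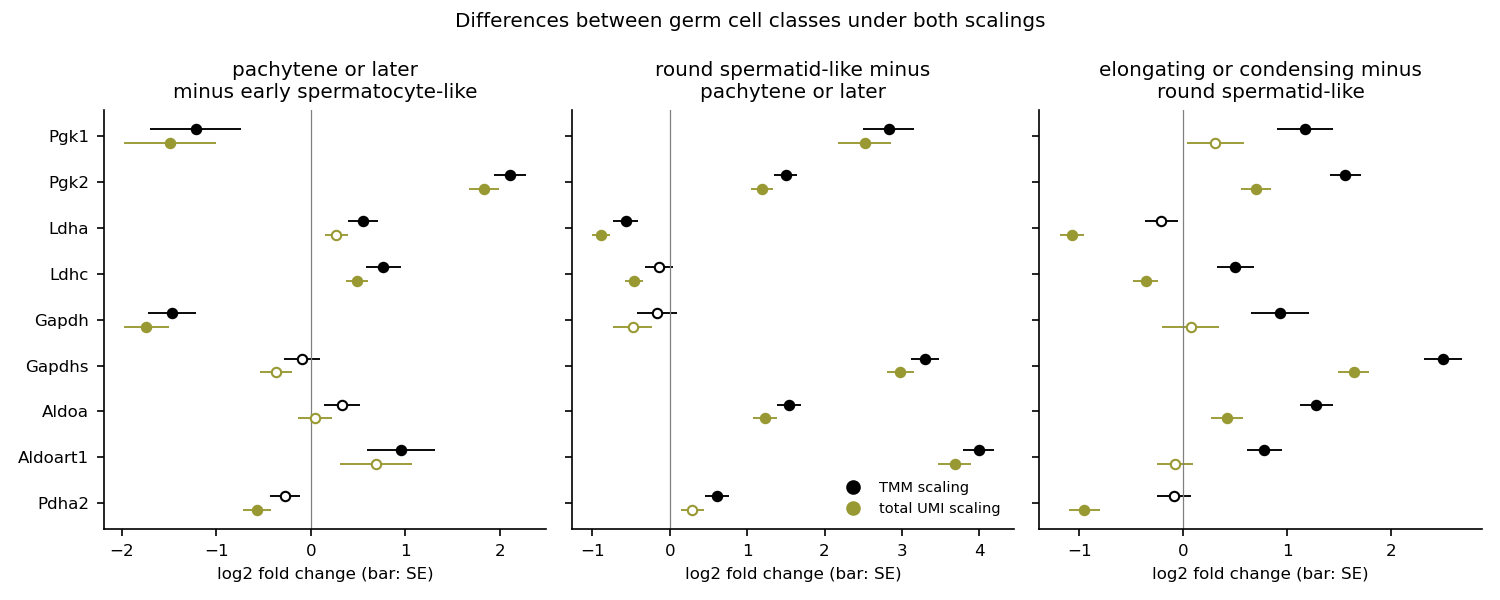
Log2 fold change of 9 members between successive germ cell classes under TMM scaling (black) and total UMI scaling (olive), with the standard error as bar and filled points past an edgeR adjusted p of 0.05. In the right panel Ldhc lies on opposite sides of 0, at 0.50 and -0.36, while Gapdhs, Pgk2 and Aldoa lie above 0 under both.

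Pgk1 can be set beside all genes of the X chromosome. Of 2611 annotated X-linked genes 418 passed the filter, which a gene high in 1 class can pass through that class alone, so that the counts over them are partly fixed by the filter. From early-like to pachytene-like cells 64 of them, or 15.3%, rose and 15, or 3.59%, fell, where 24.9% and 23.4% of all rows did. From there to round-like cells 361, or 86.4%, rose and 6, or 1.44%, fell, where 37.0% and 37.3% of all rows did. Pgk1 was called lower in the first step, a call lost in several of the fits given above, and rose in the second. Along the ordering Pgk1 stood at 1.19 and 3.34 CPM in bin 1, from 1 and 5 UMIs, and at 6.25 and 5.12 CPM in bin 2. The median log2 fold change of the tested X-linked genes in the first step was 0.43 under TMM scaling. Pdha1 did not pass the filter.

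Of the 50 other genes of glycolysis, lactate and pyruvate metabolism, 37 passed the filter. From early to pachytene-like cells 15 (40.5%) rose and 5 (13.5%) fell, where 24.9% and 23.4% of all rows did. Under total scaling 12 rose and 9 fell, where 2900 and 4559 of all 14994 rows did. Among those called under TMM were Pfkp, a phosphofructokinase (2.76 ± 0.16), Slc2a5, a fructose transporter (2.05 ± 0.16), and Slc16a1, a lactate and pyruvate transporter (-3.65 ± 0.55). Pfkp stood at 52.7 and 44.2 CPM in the earlier and 281 and 249 in the later class. Slc16a1 stood at 6.47 and 6.19 CPM against 0.480 and 0.268, the latter from 5 and 2 UMIs. From there to round-like cells 20 (54.1%) rose and 11 (29.7%) fell, where 37.0% and 37.3% of all rows did. Under total scaling 18 rose and 15 fell, where 5031 and 6740 of all 14994 rows did. The largest changes were Pdk3 and Pdp1, a kinase and a phosphatase acting on pyruvate dehydrogenase (5.76 ± 0.25 and 5.21 ± 0.33), and Pfkfb3, which sets the level of fructose-2,6-bisphosphate (4.85 ± 0.25). Their size rests on few UMIs in pachytene-like cells. Pdp1 had 9 and 5 UMIs there (0.863 and 0.671 CPM) and Pfkfb3 20 in each mouse (1.92 and 2.68 CPM). In round-like cells they stood at 23.2 and 24.6, and at 47.1 and 57.8 CPM. Pdk3, itself X-linked, stood at 4.51 and 2.82 CPM and then at 164 and 166.

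From round to elongating-like cells 20 of these genes (54.1%) rose and 7 (18.9%) fell under TMM scaling, where 27.1% and 26.0% of all rows did. Under total scaling 8 rose and 18 fell, where 2180 and 7510 of all 14994 rows did. Among those higher under TMM were Gpi1, the isomerase between glucose and fructose phosphates (3.73 ± 0.16), and Pfkfb4, a relative of Pfkfb3 (3.57 ± 0.24). Gpi1 stood at 54.1 and 65.0 CPM in round and 399 and 476 in elongating-like cells.

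The mice were compared by values alone, since each was 1 animal. Among members with at least 100 UMIs in each mouse, the log2 ratio of mouse 2 to mouse 1 lay between -0.15 and 0.24 in pachytene-like and round-like cells. It lay between -0.15 and 0.32 in early-like cells and between -0.03 and 0.45 in the Ssxb cluster. In the UMI-rich cluster it ran from 0.05 to 0.29, and in the UMI-poor cluster from 0.01 to 0.53. All 7 such members were higher in mouse 2 in round-like, UMI-rich and UMI-poor cells, where 51.5%, 51.8% and 56.7% of all genes with as many UMIs were. That count includes very small differences. The lowest ratios were 0.03 for Ldhc in round-like cells, and 0.05 and 0.01 for Ldha in UMI-rich and UMI-poor cells. The largest ratio was that of Gapdhs in the UMI-poor cluster, at 0.53, outside the range from -0.28 to 0.32 that held the middle 80% of genes. Aldoa (0.46) and Pgk2 (0.37) lay outside that range there too, and the other members within it. In the Ssxb cluster that range was -0.27 to 0.30. Gapdhs (0.45), Aldoa (0.38), Pgk2 (0.34) and Aldoart1 (0.33) lay above it there, and the other members within it. The range ended at 0.24 in UMI-rich, 0.22 in round-like and 0.30 in early-like cells. Aldoart1 (0.29) and Gapdhs (0.26) lay above it in UMI-rich, Aldoart1 (0.24) in round-like and Ldha (0.32) in early-like cells. Pdha2 (0.24) in UMI-rich and Gapdhs (0.22) in round-like cells lay at its end.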

How the data were processed

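Each mouse gave 1 droplet library. Per the labels and the study's methods, the authors counted reads with Cell Ranger 2.0.0 against a repeat-masked GRCm38 genome with added repeat sequences, so that reads in masked repeats or in several places could be lost. They equalised reads per cell between mice and deposited UMI counts, not normalized, for 2552 cells and 51868 rows. The barcode ending gave the mouse. Depth was 27450497 and 30302332 UMIs (medians 17871 and 19184 per cell), and no barcode was shared.

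Cells were scaled, log-transformed and grouped by K-means (K = 9, 10 principal components, seed 42) on 27734 rows. A cluster needed at least 3 markers at 1.5 times the CPM of all cells to be named. Doublets were called in 25 cells and kept. Sums per mouse and class (10 sums, 5 residual degrees of freedom) were tested with edgeR 4.0.16 in R 4.3.3 (glmQLFit, TMM, filterByExpr), with DESeq2 1.42.0 as an alternative. In counts simulated for pachytene-like against round-like cells (13819 genes), edgeR recovered 169 of 187 tested genes changed 4-fold with 13 false calls. There 200 genes were changed, as many up as down, and every other gene kept 1 level in all classes. In the data 37.0% of rows were called higher and 37.3% lower in this step, so the simulation does not measure false calls under such wide change. Sums of the same mouse are paired by animal, and their deviations correlated between 0.033 and 0.203 over 10 pairs of classes. Intervals are exact 95% Poisson or binomial and cover counting error only. Standard errors given with edgeR fold changes were the absolute log2 fold change over the square root of the F statistic. They rest on a spread estimated over all classes in the fit and moderated across genes. They are not the spread between the mice in a single comparison. Bins used scanpy 1.11.5. The genes named beside the members were the 2 most alike in mouse 1, the 3 pathway genes with the largest called change in each comparison, and paralogs. Some genes that this rule names, and 1 sequence, are not reported here. The members, lists and markers were chosen with earlier results of these data known. Gene positions matched 50376 of 50686 identifiers.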

Additional observations from a re-analysis of the deposited data

How the results depend on the processing

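Scaling to total UMIs moved all 6 counts of called members. It gave 3 higher and 3 lower instead of 7 and 0 from round-like to elongating-like cells, where 2180 and 7510 of 14994 rows were. From early-like to pachytene-like cells it gave 2 higher and 3 lower instead of 4 and 2, where 2900 and 4559 rows were. In the step between it gave 5 higher and 2 lower instead of 6 and 1, where 5031 and 6740 rows were. The count of members lower in pachytene-like than in early-like cells, 2, was 1 with clustering on the 2000 most variable genes and 1 without doublets. Clustering on the 2000 most variable genes left no unnamed Ssxb cluster. It gave 903 round-like and 745 pachytene-like cells instead of 447 and 526, so its classes differ in make-up. Leaving out 1 sum of a mouse and class at a time gave 0 to 2 for that count, 3 to 4 for members higher there, 0 to 1 for members lower in round-like cells, and 5 to 7 higher and 0 to 1 lower in elongating-like cells. In the last, Ldhc lost its call without any 1 of the 4 sums compared and with the 2000 most variable genes (0.36, 6 members then higher), and Pdha2 was called lower, at -0.45, without the sum of mouse 2. In these fits the lone sum of a class is assumed to vary like the others, and with 1 mouse alone there is no test.

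Directions reversed for Ldhc (-0.36) and Aldoart1 (-0.08) in elongating-like cells under total scaling, and for values near 0 that passed no test. These were Pdha2 there with DESeq2 (0.01), Ldhc (0.09) and Gapdh (0.06) in round-like cells with DESeq2, and Gapdhs in pachytene-like cells with the 2000 most variable genes (0.19), without doublets (0.19) and without the elongating-like sum of mouse 1 (0.02). The values of Gapdhs there with 1 sum or mouse left out ran from -0.12 to 0.02. The cause was not tested. With the mouse as a block the paired counts were 4 and 2, 6 and 1, and 7 and 0 members higher and lower, and no call of a member changed. Depth limits Pdha1 (10 UMIs), Pgk1 (372 UMIs) and all spermatogonium-like, Sertoli-like and Leydig-like values.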
